A study of Homo sapiens with 4 samples.

Results

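The MYC network and MYC binding proteins were followed here as 10 genes of 19801 listed in RNA-seq files of LNCaP, a human prostate cancer cell line that responds to androgen. The genes were chosen by name, as MYC and its relative MYCL, their partner MAX, the other factors MXI1, MXD4, MNT, MGA and MLX of the same network, and MYCBP and MYCBP2, which are named for binding MYC. All 10 had at least 1 RPKM (mapped reads divided by gene length and by library size) in at least 1 library, as did 14626 of the 19801 genes. LNCaP cells were transfected for 24 h with an empty vector plasmid or with AR1-651, which encodes a truncated receptor that is active without hormone. Ailanthone (AIL), a plant quassinoid, was then added or left out for 12 h. Each of the 4 combinations (empty vector with and without AIL, AR1-651 with and without AIL) was sequenced as 1 library, so no difference below has a replicate check or a p-value. Transfection was transient, and a library therefore averages cells that took up plasmid and cells that did not.

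MYC is a basic helix-loop-helix leucine zipper factor that binds DNA as a dimer with MAX, mostly at the E-box CACGTG, and drives genes of ribosome production, nucleotide synthesis and the cell cycle. The MXD proteins, MNT and MGA also need MAX, occupy the same sites and recruit corepressors, so that MAX is shared between activating and repressing dimers. MLX forms a parallel arm: it pairs with MLXIP (MondoA) or MLXIPL (ChREBP), which respond to glucose phosphates and drive TXNIP and genes of fat synthesis, and also with some MXD proteins and MNT. In prostate cancer, MYC is often raised, and its locus lies in a frequently gained chromosome arm.

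Depth was estimated from the smallest RPKM steps of short genes, and came to about 5180000 reads for empty vector, 4910000 for empty vector + AIL, 5630000 for AR1-651 and 5810000 for AR1-651 + AIL. From it a counting error was computed for each value. This error covers counting only and not variation between cultures. LNCaP markers were high in every library, with 97.2 RPKM or more for KRT18, FOLH1 and HOXB13, whereas 3 of 5 measured basal, stromal and immune markers, such as the basal keratin KRT14 and the leukocyte gene PTPRC, stayed below 1 RPKM. The other two were the mesenchymal genes COL1A1 (1.75 to 4.59 RPKM, highest in empty vector) and VIM (0.67 to 2.20 RPKM, highest in AR1-651 + AIL). The androgen-regulated genes KLK2 and TMPRSS2 were higher in AR1-651 than in empty vector (198 against 14.3 RPKM and 276 against 36.7 RPKM). Below, conditions are called by their labels.

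MYC had the widest range of the 10 genes. MYC (chr8:127735434-127741434, plus strand, GRCh38, with a transcript of 2366 nt) stood at 63.0 RPKM in empty vector, 9.83 in empty vector + AIL, 26.5 in AR1-651 and 7.86 in AR1-651 + AIL. It was highest in the untreated empty vector cells, intermediate with AR1-651, and low in both libraries with AIL. These values correspond to about 760, 112, 348 and 106 reads. With AIL, MYC fell by 2.56 on the log2(RPKM + 1) scale in empty vector cells (counting SE 0.13), a 6.41-fold lower RPKM. In AR1-651 cells it fell by 1.64 (counting SE 0.14), a 3.38-fold lower RPKM. AR1-651 alone went with a 2.38-fold lower RPKM than empty vector (log2 change -1.22, counting SE 0.09). The AIL libraries differed from each other by only -0.29 (counting SE 0.18), so the smaller decrease in AR1-651 cells started from a lower level and ended near the same one. RPKM is a share of a bulk library, so fewer cells that express a gene and less of its RNA per cell cannot be told apart. Of the 14626 genes tested, 58 had a lower change than MYC with AIL in empty vector cells, 216 with AIL in AR1-651 cells and 771 with AR1-651. PVT1, the noncoding RNA gene next to MYC, stood at 5.88, 10.7, 5.20 and 10.3 RPKM in the same order.

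**Figure D1:**
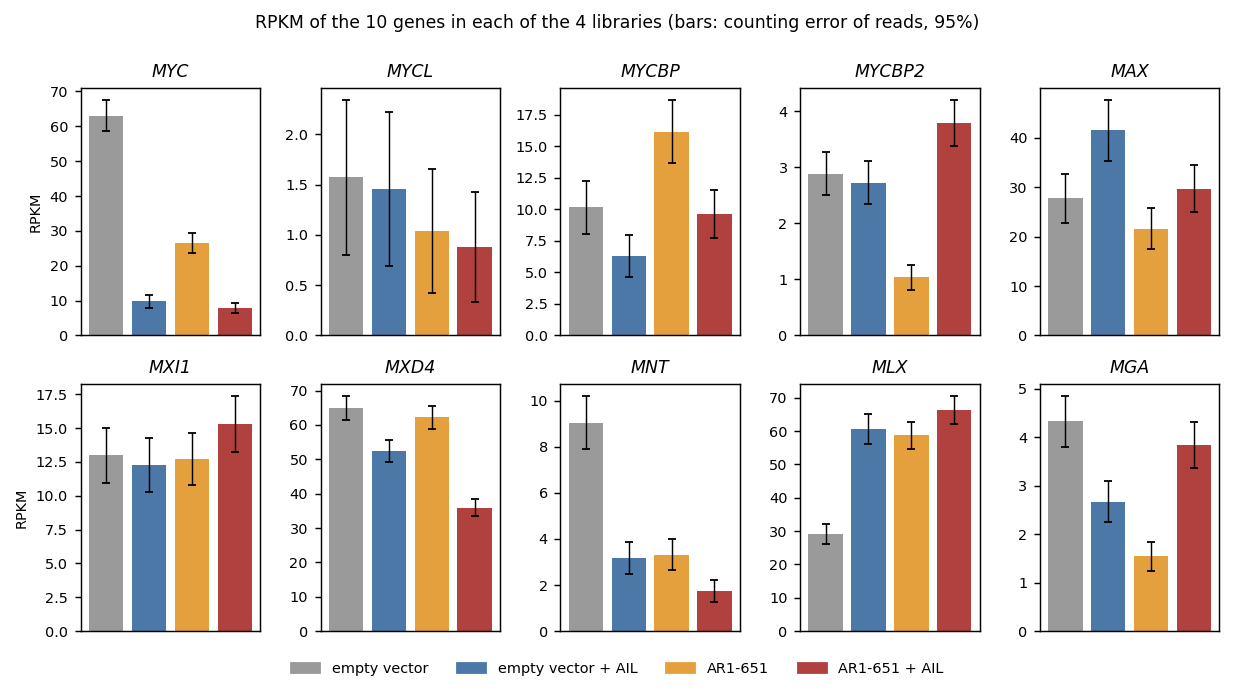
RPKM (y axis, starting at 0, separate scale for each gene) of the 10 genes in the 4 libraries (x axis, colours), with 1 library per bar and error bars that give a 95% interval for the counting of reads only. MYC and MNT are highest in empty vector, MLX is lowest there, MYCBP is highest in AR1-651, and MYCBP2 and MGA are lowest in AR1-651.

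MYCL, a paralogue of MYC first known from lung cancer, was near the detection limit. MYCL (chr1:39895426-39902256, minus strand) had 1.57, 1.46, 1.04 and 0.88 RPKM in empty vector without and with AIL and in AR1-651 without and with AIL, from about 16, 14, 11 and 10 reads. No change of MYCL exceeded 0.39 in size, with counting SE of 0.31 to 0.32, and a difference was not detectable at this depth. No entry for MYCN was found among the 19801 genes listed. MYC was thus the main MYC family transcript measured, although in both AIL libraries it ranked below MLX, MXD4, MAX and MXI1.

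MAX, the partner of both MYC and its antagonists, was higher with AIL where MYC was lower, but by less than 2-fold. MAX (chr14:65006174-65102695, minus strand, 897 nt) had 27.7 RPKM in empty vector, 41.5 in empty vector + AIL, 21.6 in AR1-651 and 29.7 in AR1-651 + AIL. It was higher with AIL by 0.56 in empty vector cells and by 0.45 in AR1-651 cells (counting SE 0.16 and 0.18), and lower with AR1-651 by 0.35 and 0.47 without and with AIL. As RPKM is a value per length, values of different genes were set side by side as ratios of RPKM. The ratio of MAX to MYC was 0.44 in empty vector, 0.813 in AR1-651, 4.22 in empty vector + AIL and 3.78 in AR1-651 + AIL. MAX has 9 RefSeq transcripts, and the counting tool is not given in the sources used here, so such ratios are not numbers of transcripts. The dependence of changes on transcript length, given below, also enters them. MAX-AS1, an antisense gene that overlaps MAX, was listed at 1.86 to 3.56 RPKM, and whether the authors' counting used strand is not given in the sources used here.

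Among the antagonists that share MAX, MNT was lower in all 3 other libraries than in empty vector. MNT (chr17:2384060-2401118, minus strand, 4996 nt), a widely expressed repressor that competes with MYC for MAX, had 9.05 RPKM in empty vector, 3.17 in empty vector + AIL, 3.31 in AR1-651 and 1.75 in AR1-651 + AIL. The untreated empty vector library was high, and the library with both AR1-651 and AIL was the lowest. MNT fell by 1.27 with AIL in empty vector cells (counting SE 0.15) and by 1.22 with AR1-651 (counting SE 0.14), 2.85-fold and 2.73-fold lower in RPKM. In AR1-651 cells the change with AIL was -0.65 (counting SE 0.17), which is short of 2-fold.

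MXD4 and MXI1, members of the MXD family that is known from differentiating cells, changed by less than 2-fold in every comparison. MXD4 (chr4:2247432-2262294, minus strand) had 65.0, 52.3, 62.2 and 36.0 RPKM in empty vector without and with AIL and in AR1-651 without and with AIL. Only the last library stood clearly lower, with a change of -0.77 against AR1-651 (counting SE 0.06). MXI1 (chr10:110207605-110287365, plus strand) had 13.0, 12.3, 12.7 and 15.3 RPKM in the same order, and its highest value was 1.25 times its lowest. It was the steadiest of the 10 genes. MXD3 and MXD1, of the same family but outside the 10, were also measured. MXD3 had 49.7, 55.3, 94.8 and 62.2 RPKM in the same order, above MXD4 in all libraries but empty vector. Its change was 0.92 with AR1-651 and -0.60 with AIL in AR1-651 cells. MXD1 had 3.14, 4.25, 2.70 and 5.32 RPKM, with a change of 0.77 with AIL in AR1-651 cells. The RPKM ratio of MXD4 to MYC went from 1.03 in empty vector to 5.32 in empty vector + AIL, and from 2.34 in AR1-651 to 4.58 in AR1-651 + AIL. For MNT the ratio to MYC was 0.144, 0.322, 0.125 and 0.223 in the order of the 4 conditions.

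MGA, a MAX partner that also carries a T-box domain and belongs to a noncanonical Polycomb complex, followed another pattern. MGA (chr15:41621224-41773081, plus strand, 11727 nt) had 4.33 RPKM in empty vector, 2.67 in empty vector + AIL, 1.54 in AR1-651 and 3.84 in AR1-651 + AIL. It was lowest in AR1-651 and close to the empty vector level once AIL was added. With AR1-651 it fell by 1.07 (counting SE 0.11). The change with AIL was -0.54 in empty vector cells and 0.93 in AR1-651 cells, a difference between the backgrounds of 1.47 that was not tested.

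MLX moved the other way from MYC and MNT. MLX (chr17:42567068-42573239, plus strand, 2428 nt) had 29.2 RPKM in empty vector, 60.7 in empty vector + AIL, 58.8 in AR1-651 and 66.3 in AR1-651 + AIL. It was low in empty vector only, and the other 3 libraries were alike within 0.17 on the log2(RPKM + 1) scale. MLX rose by 1.03 with AIL in empty vector cells (counting SE 0.09), 2.08-fold in RPKM. With AR1-651 it was 2.01-fold higher in RPKM, which gave 0.98 on the log2(RPKM + 1) scale, just short of the threshold of 1. MLXIP, the MondoA subunit that pairs with MLX, went from 18.2 RPKM in empty vector to 13.4, 5.92 and 5.89 in empty vector + AIL, AR1-651 and AR1-651 + AIL. It fell with AR1-651 (log2 change -1.47), but the change was -0.64 once the dependence on transcript length and GC content (the trend) was taken out. The RPKM ratio of MLXIP to MLX was 0.622, 0.22, 0.101 and 0.0888 in the 4 conditions, with the trend left in. MLXIPL was near 1 RPKM or below throughout (0.50 to 1.03).

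The 2 genes named for binding MYC differed from each other. MYCBP (chr1:38862964-38874105, minus strand, 1784 nt), whose small product binds the amino-terminal part of MYC, had 10.2 RPKM in empty vector, 6.29 in empty vector + AIL, 16.2 in AR1-651 and 9.67 in AR1-651 + AIL. It was highest with AR1-651 alone and lower with AIL by similar amounts in both backgrounds, -0.61 and -0.69 (counting SE 0.22 and 0.17). With AR1-651 it was higher by 0.62 without AIL and by 0.55 with AIL (counting SE 0.17 and 0.21). None of these reached 2-fold. The readthrough gene GJA9-MYCBP was listed at 0.27 to 0.63 RPKM.

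MYCBP2 (chr13:77044655-77327050, minus strand, 14736 nt), a very large E3 ubiquitin ligase, had 2.89 RPKM in empty vector, 2.73 in empty vector + AIL, 1.04 in AR1-651 and 3.79 in AR1-651 + AIL. Like MGA, it was low in AR1-651 alone. It rose with AIL in AR1-651 cells by 1.23 (counting SE 0.10), 3.64-fold in RPKM, against -0.06 in empty vector cells (counting SE 0.10). The difference of 1.29 between the backgrounds was not tested. With AR1-651 alone its change was -0.93 (counting SE 0.11). An antisense gene, MYCBP2-AS1, was listed at 0 to 0.80 RPKM.

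**Figure D2:**
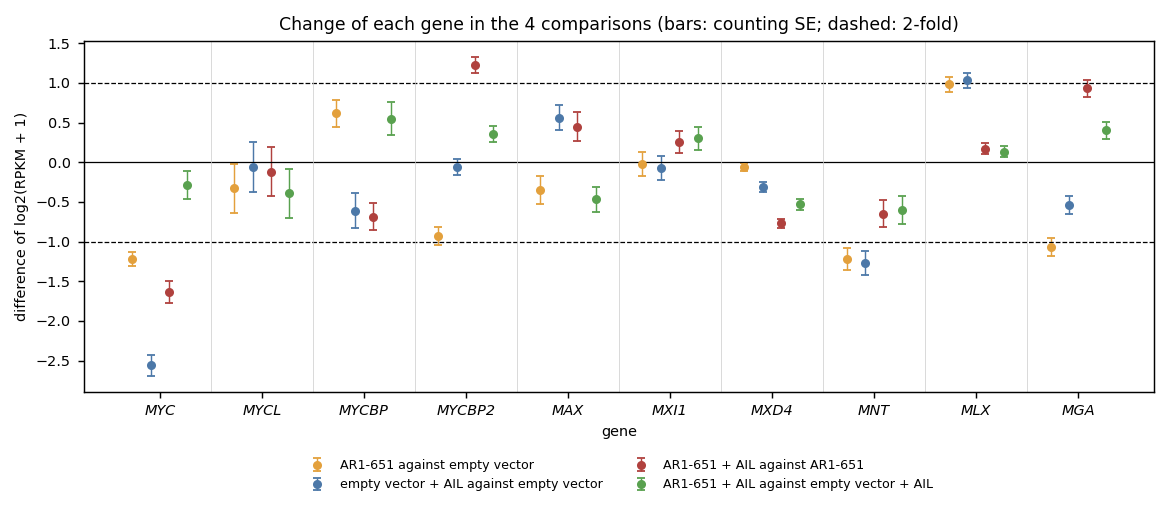
Difference of log2(RPKM + 1) (y axis) for each of the 10 genes (x axis) in the 4 comparisons (colours), with bars of 1 counting SE and dashed lines at 2-fold. MYC lies below the lower line in 3 comparisons, and MYCBP2 lies above the upper line with AIL in AR1-651 cells only.

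Counted together, 3 of the 10 genes (MYC, MNT and MGA) were at least 2-fold lower with AR1-651 and 0 were higher, where 11.6% of all genes tested were lower and 4.01% higher. With AIL in empty vector cells, 2 were lower (MYC and MNT) and 1 higher (MLX), beside 9.03% lower and 9.53% higher of all genes. With AIL in AR1-651 cells, 1 was lower (MYC) and 1 higher (MYCBP2), beside 5.74% and 14.9%. Between the AIL libraries, AR1-651 + AIL against empty vector + AIL, no gene of the 10 reached 2-fold, beside 3.53% lower and 1.46% higher. With counts this small a share of the 10 genes cannot be set apart from that of all genes. The medians of the 10 were -0.34, -0.19, 0.03 and -0.08 in these comparisons, against -0.30, -0.02, 0.13 and -0.03 over all genes tested. The first 2 comparisons share the empty vector library, and each other library also serves in 2 comparisons, so the counts are not independent. Median-ratio scaling moved the balance of all genes with AR1-651 from 586 higher and 1701 lower to 1066 and 817 (median of all genes from -0.30 to -0.09), and with AIL in AR1-651 cells from 2184 and 839 to 1582 and 1261 (median from 0.13 to -0.03). Under it, MYC was at -0.96, MGA at -0.89 and MLX at 1.25 with AR1-651, MNT alone stayed 2-fold lower, and MYC at -1.85 with AIL in AR1-651 cells.

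Transcript length moved with several of these values. With AR1-651 the median change of all genes ran from 0.19 in the shortest sixth of transcripts, which holds MAX, through -0.23 in the third sixth, which holds MYC, MYCL, MXI1 and MLX, to -0.71 in the longest sixth, which holds MYCBP2, MNT and MGA. With AIL in AR1-651 cells the same sixths had -0.02, 0.14 and 0.34. After the trend with length and GC content was removed, the changes with AR1-651 were -0.25 for MYCBP2, -0.45 for MNT and -0.39 for MGA, below 2-fold for all 3, while MYC stood at -1.05 and MLX at 1.10. The AIL change of MYCBP2 was then 0.12 in empty vector and 0.76 in AR1-651 cells, and that of MGA -0.36 and 0.42. For MXD4 the change with AR1-651 turned from -0.06 to 0.65 without AIL and from -0.53 to 0.13 with AIL, and for MXI1 the AIL changes were -0.25 and -0.19. Those of MYC were -2.59 in empty vector and -1.65 in AR1-651 cells, close to the values without this step, and MYCBP with AIL in AR1-651 cells came to -1.15. MNT and MLX with AIL in empty vector cells were -0.97 and 0.95. The part that length and GC content had in the changes of the long genes was not tested further.

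**Figure D3:**
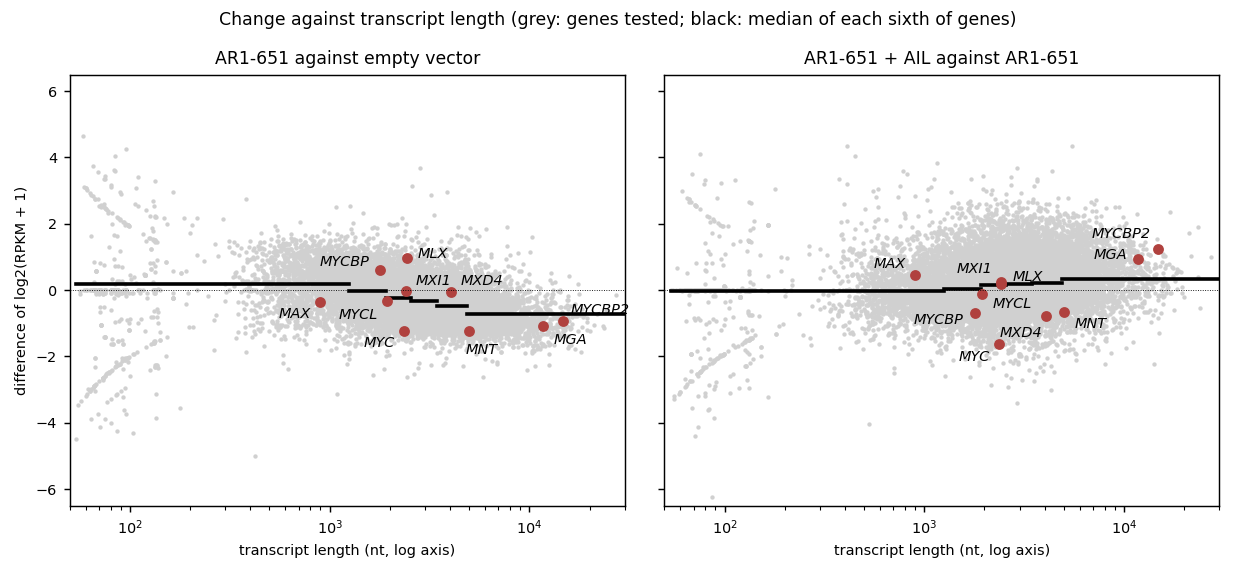
Difference of log2(RPKM + 1) (y axis) against transcript length in nt (x axis, log scale) for the genes tested (grey), with the median of each sixth of genes (black steps) and the 10 genes in red, for AR1-651 against empty vector and AR1-651 + AIL against AR1-651. On the left MYCBP2 (-0.93), MGA (-1.07) and MNT (-1.22) lie below the black step of the longest sixth (-0.71), and MYC lies below and MLX above the step of their own sixth (-0.23).

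Genes whose products act with or on these proteins were read from lists. Of 12 measured coactivators and partners of MYC, 6 were at least 2-fold lower with AR1-651 (median of the list -0.67), beside 11.6% of all genes (median -0.30). The 6 became 1 with median-ratio scaling and 0 after the length and GC trend was removed. HCFC1, a chromatin cofactor that binds MYC, had 23.2, 9.42, 9.11 and 4.16 RPKM in empty vector without and with AIL and in AR1-651 without and with AIL, and fell with AIL in empty vector cells (-1.21) and with AR1-651 (-1.26). Without the trend these were -0.82 and -0.32, short of 2-fold. The acetyltransferase KAT5 had 27.9, 91.5, 43.1 and 94.4 RPKM and rose with AIL in both backgrounds (1.68 and 1.11, the second 0.90 with scaling), the only gene of this list to do so. Of 8 corepressors that MXD proteins and MNT recruit, SAP30, a subunit of the SIN3 complex, rose with AIL in empty vector cells (1.62) and with AR1-651 (1.54), from 4.43 RPKM in empty vector to 15.7 and 14.8. SIN3B, a scaffold of the same complex, fell with AR1-651 (-1.15), but was at -0.90 with scaling and -0.41 without the trend.

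Of 14 genes that control turnover or phosphorylation of the MYC protein, 2 rose with AIL in empty vector cells and 3 in AR1-651 cells. Of all genes, 9.53% and 14.9% rose. None of the 14 fell, beside 9.03% and 5.74% of all genes, which in a list this small does not set it apart. The 3 became 2 with scaling and 1 without the trend. FBXW7, the substrate-binding subunit of a ubiquitin ligase that marks phosphorylated MYC for degradation, had 3.67 RPKM in empty vector, 18.3 in empty vector + AIL, 2.13 in AR1-651 and 29.6 in AR1-651 + AIL. It was high in both libraries with AIL, 4.99-fold over empty vector and 13.9-fold over AR1-651 (log2 changes 2.05 and 3.29). AURKA, a kinase known to stabilise MYC family proteins, rose as well (1.09 and 1.06), and CIP2A, an inhibitor of the phosphatase that destabilises MYC, rose in AR1-651 cells (1.26). Without the trend, AURKA was at 0.91 and 0.71 and CIP2A at 0.41, whereas FBXW7 was at 2.01 and 2.81. The other 11 of the 14 stayed within 2-fold under AIL on the log2(RPKM + 1) scale, and MYC protein was not measured here. TRIM32 came closest in empty vector cells, from 8.84 to 18.6 RPKM with AIL, 2.11-fold in RPKM. The count of 2 in empty vector cells also stood without the trend, although AURKA was then short of 2-fold. Of 10 measured regulators of the MYC promoter or mRNA, 2 rose with AIL in empty vector cells and 3 in AR1-651 cells, beside 9.53% and 14.9% of all genes. The 3 became 1 with scaling and 0 without the trend. CNBP, a zinc finger protein that binds the MYC promoter, rose with AIL from 102 to 262 RPKM in empty vector cells and from 130 to 325 in AR1-651 cells. CTCF, which insulates the locus, rose from 16.6 to 35.3 and from 16.7 to 34.9.

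Few genes known to be activated by MYC fell 2-fold with AIL, where MYC fell, and few of all genes did. Of 44 measured, 6 rose and 1 fell with AIL in empty vector cells, and 9 rose and 2 fell in AR1-651 cells, with list medians of 0.11 and 0.02 (all genes -0.02 and 0.13). Of all genes, 9.53% rose and 9.03% fell in empty vector cells and 14.9% and 5.74% in AR1-651 cells, and the 9 became 5 without the trend. With scaling, 8 of the 44 rose and 4 fell in AR1-651 cells, beside 1582 and 1261 of 14626 genes. The list median was then -0.20, against -0.03 for all genes. SLC19A1, the reduced folate carrier, was the gene that fell in both backgrounds, from 20.8 to 7.83 RPKM and from 10.8 to 2.67 (-1.30 and -1.68). ODC1, the rate-limiting enzyme of polyamine synthesis, had 203 RPKM in empty vector, 315 in empty vector + AIL, 917 in AR1-651 and 343 in AR1-651 + AIL. It stood out in AR1-651, where it rose by 2.17, and fell with AIL in those cells by 1.42. The ribosome production genes NOP2 and WDR74 rose with AIL in both backgrounds, NOP2 by 1.67 and 1.32 and WDR74 by 1.80 and 1.29. WDR43, of the same process, and TFAM, a mitochondrial transcription factor, rose in AR1-651 cells (1.90 and 1.66, or 1.26 and 0.91 without the trend). With AR1-651, 4 of the 44 rose and 2 fell, beside 4.01% and 11.6% of all genes, among them NME1 (1.27), PPAT (-1.26) and CAD (-1.17), enzymes of nucleotide metabolism. Without the trend PPAT was at -0.84 and CAD at -0.36, so that 0 fell.

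Of 11 genes known to be repressed by MYC, 5 rose with AIL in each background, GADD45A, KLF6, CDKN1A, GADD45B and CDKN2B, with list medians of 0.95 and 0.78, beside 9.53% and 14.9% of all genes that rose and medians of -0.02 and 0.13. The count of 5 also stood with scaling and without the trend. GADD45A, a growth arrest gene, had 21.3 RPKM in empty vector and 228.7 in empty vector + AIL, and 31.2 in AR1-651 and 227 in AR1-651 + AIL. It was high in both AIL libraries (log2 changes 3.36 and 2.83). CDKN1A, the p21 inhibitor of cyclin-dependent kinases, went from 155 to 551 RPKM and from 132 to 361, and CDKN2B, the p15 inhibitor, from 2.14 to 8.02 and from 1.24 to 8.69. NDRG1, which is also an androgen-regulated gene, was the only gene of the 11 to fall 2-fold with AIL in AR1-651 cells (-1.94). Of all genes 5.74% fell there, and the 1 became 2 with scaling. NDRG2 was lower there as well (-0.79), and 8 of the 11 had changes above 0. These genes have other known regulators, and the part of MYC in their change was not tested.

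Known targets of MLX with MLXIP or MLXIPL split in opposite directions under AIL. TXNIP, an arrestin-like protein that limits glucose uptake, had 134 RPKM in empty vector, 1506 in empty vector + AIL, 118 in AR1-651 and 1529 in AR1-651 + AIL. It was 11.2-fold and 12.9-fold higher in the AIL libraries than in their controls (log2 changes 3.48 and 3.68). Its paralogue ARRDC4 rose by 2.53 and 2.59, and the zinc finger gene KLF10 by 2.87 and 3.35. FASN and ACACA, the enzymes of fatty acid synthesis, fell in both, FASN by 1.18 and 1.90 and ACACA by 1.04 and 1.11. Without the trend both were at -0.81 in empty vector cells, short of 2-fold, and at -1.78 and -1.32 in AR1-651 cells. With AR1-651, where MLX was also higher, TXNIP was at -0.18, ARRDC4 at -0.61, KLF10 at -0.77, FASN at -0.38 and ACACA at 0.28, all within 2-fold.

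**Figure D4:**
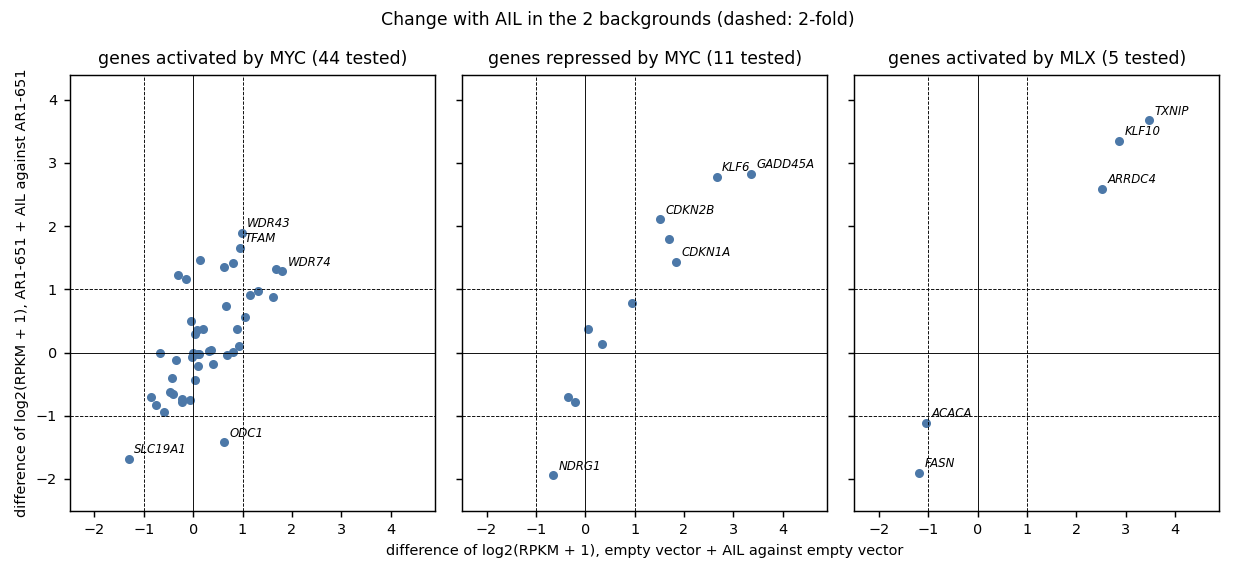
Difference of log2(RPKM + 1) with AIL in AR1-651 cells (y axis) against that in empty vector cells (x axis) for measured genes known to be activated by MYC (44), repressed by MYC (11) or activated by MLX with its partners (5), with dashed lines at 2-fold. TXNIP, KLF10, ARRDC4, GADD45A and KLF6 lie past 2-fold in both backgrounds, and SLC19A1, FASN and ACACA lie below it in both.

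Promoter sequence was read from RefSeq windows on GRCh38.p14 that cover 250 bases before each start and 50 after, and CACGTG, which equals its own reverse complement, was sought in the 250 bases before the start. The windows of MLX, MNT and MXD4 held it, 3 of the 9 genes with a window (33.3%), against 6.49% of all 27305 promoters and 8.74% of those of genes tested. MYC had no window and was not searched, and sites outside the 250 bases were not sought for any gene. The stretches around these motifs are shown because CACGTG is the site that the network of the 10 genes binds. With that of ARRDC4 from the MLX target list, they are given with the E-box in capitals. They are MLX at chr17:42567023-42567082 (plus strand, the motif ending 44 bases before the start), MNT at chr17:2401221-2401280 (minus strand, 187 bases), MXD4 at chr4:2262315-2262359 (minus strand, 232 bases) and ARRDC4 at chr15:97960466-97960525 (plus strand, 204 bases). Each distance is to the start used by the RefSeq window. For MLX, MNT and MXD4 that start differs from the limit of the gene position given above, which comes from GENCODE.
MLX: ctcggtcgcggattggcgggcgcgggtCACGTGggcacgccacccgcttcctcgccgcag
MNT: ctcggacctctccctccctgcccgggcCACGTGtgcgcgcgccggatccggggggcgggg
MXD4: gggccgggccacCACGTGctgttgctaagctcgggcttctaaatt
ARRDC4: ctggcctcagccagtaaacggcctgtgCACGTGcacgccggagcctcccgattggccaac
The 3 network genes with the motif did not move alike with AIL in empty vector cells: MLX rose (1.03), MNT fell (-1.27) and MXD4 stood at -0.31. The window of TXNIP held no CACGTG. Over all genes tested, those with and without the motif had median changes of -0.04 and 0.01 with AIL in empty vector cells, 0.10 and 0.16 with AIL in AR1-651 cells, and -0.29 each with AR1-651. Of 39 MYC-activated genes with a window, 12 held the motif (30.8%). A match is a description of these letters and not evidence of binding.

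Profiles over the 4 libraries were compared by the Euclidean distance between their log2(RPKM + 1) values, each gene centred on its mean over the libraries, among 7496 genes with at least 5 RPKM in every library. The genes nearest to MYC were GRN (distance 0.391), which had 48.7, 10.4, 20.5 and 5.64 RPKM in empty vector without and with AIL and in AR1-651 without and with AIL, then ST14 (0.401) and FNDC10 (0.439). Only 4 genes lay within 0.5 of MYC. Within the same distance of MYCBP lay 318 genes, the nearest being RAB29 (0.0969), with 8.44, 5.18, 14.8 and 8.14 RPKM, ZNF667-AS1 (0.104) and ELOVL5 (0.117). These distances rest on 4 libraries and describe likeness in these libraries alone.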

How the data were processed

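RNA of LNCaP cells under 4 conditions was sequenced with 1 library each, from kits whose description in the labels names both Ribo-Zero and oligo(dT) selection. The authors deposited RPKM per gene, rounded to 2 decimals. The submitters' processing notes name BWA 0.7.10-r789 and hg19, and the files list genes by Entrez identifier with RefSeq transcripts. The counting tool and the annotation release are not given in the sources used here. Symbols came from the RefSeq table of GRCh38.p14 (19703 of 19801 identifiers matched). Transcript lengths, GC content and gene positions came from GENCODE release 29 on GRCh38, since the files hold no coordinates.

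Changes are differences of log2(RPKM + 1), which understate those of low genes, over the 14626 genes with at least 1 RPKM in at least 1 library. A gene counted as risen or fallen at 2-fold or more on this scale. With 1 library per condition no test was made. Depth was estimated from the RPKM of short noncoding genes (span of at most 250 bases) at 1 read, with length taken as span minus 36, and of values at 1 to 10 reads 83.2% to 85.0% came out whole within 0.05. Counting SE comes from these estimated reads. Alternatives were scaling by median ratios, a pseudocount of 0.1, a minimum of 5 RPKM, keeping all genes, a threshold of 1.5-fold, and subtracting what a polynomial of degree 3 in the ranks of length and GC content predicts (trend removal).

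The 10 genes and the gene lists were chosen with earlier results of these data known. Named besides the 10 genes were all genes of lists of up to 5, up to 2 with the largest rise and 2 with the largest fall of other lists in each comparison, and the 3 nearest profiles to MYC and MYCBP. PVT1, TRIM32 and the markers lie outside this rule, as do CDKN1A, CDKN2B and GADD45B in the comparisons with AIL, and were chosen after their values were seen. A few genes that this rule names are left out here. The calculations were tested on simulated data. Python 3.11.15, NumPy 2.4.6, pandas 2.3.3 and matplotlib 3.10.9 were used.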

Additional observations from a re-analysis of the deposited data

Results flagged for a closer look

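All values here are differences of log2(RPKM + 1), and a result is listed when the same contrast went in opposite directions in the 2 backgrounds, or with and without AIL. With 1 library per condition none of these differences was tested. MGA stood at -0.54 with AIL in empty vector cells and 0.93 in AR1-651 cells, and at -1.07 with AR1-651 in the absence of AIL and 0.40 in its presence, a difference of 1.47 either way. MYCBP2 stood at -0.06 and 1.23 with AIL, and at -0.93 and 0.36 with AR1-651, a difference of 1.29. With the dependence on length and GC content (the trend) taken out, its AIL changes were 0.12 and 0.76, the same direction in both. MXI1 stood at -0.07 and 0.25 with AIL, and at -0.02 and 0.30 with AR1-651, a difference of 0.32. Its counting SE was 0.14 to 0.15, and without the trend it stood at -0.25 and -0.19 with AIL and at 0.05 and 0.11 with AR1-651, so the opposite directions were lost.

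Among the other genes, ODC1 stood at 0.63 with AIL in empty vector cells and -1.42 in AR1-651 cells (difference -2.05), and PPAT at -0.31 and 1.22 (difference 1.54). KRT18 stood at 0.79 and -0.43 (difference -1.22), VIM, at most 2.20 RPKM, at -0.45 and 0.94 (difference 1.39), and MLXIPL, which was near 1 RPKM, at -0.15 and 0.03 (difference 0.18). For the contrast of AR1-651 with empty vector, the difference between AIL present and absent was 1.54 for PPAT, 1.39 for VIM, -1.22 for KRT18, -1.28 for NDRG1, 1.24 for FBXW7, 0.97 for CIP2A and 0.92 for WDR43. It was 0.73 for TFAM, 0.59 for CDKN2B, -0.54 for GADD45A, -0.51 for WDR74, -0.34 for NOP2, 0.20 for TXNIP and -0.02 for CTCF. Without the trend, the AR1-651 changes without and with AIL shared a direction for KRT18 (1.07, 0.03), NDRG1 (1.36, 0.06) and PPAT (-0.84, -0.09). The same held for CIP2A (0.16, 0.19), TFAM (0.48, 0.32), GADD45A (0.46, 0.17), WDR74 (0.52, 0.21) and CTCF (0.28, 0.06). TXNIP shared a direction with scaling (0.09, 0.08). FBXW7, CDKN2B, WDR43 and VIM kept opposite directions without the trend.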

How the results depend on the processing

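No paired analysis was possible because each condition had 1 library, and for the same reason no replicate could be left out. All 8 changes of the 10 genes that reached 2-fold kept their direction under each alternative that gave a value (MGA and MYCBP2 gave none at a minimum of 5 RPKM). MYC with AIL ranged from -2.67 to -2.56 in empty vector and from -1.85 to -1.64 in AR1-651 cells and stayed past 2-fold. Counts of the 10 genes with AR1-651 went from 0 higher to 1 with a pseudocount of 0.1, median-ratio scaling or trend removal and to 2 at 1.5-fold, and from 3 lower to 1 with scaling or trend removal. With AIL in empty vector cells, trend removal gave 0 higher in place of 1 and 1 lower in place of 2. With AIL in AR1-651 cells, the 1 higher became 2 with a pseudocount of 0.1 or at 1.5-fold and 0 with trend removal or a minimum of 5 RPKM, and the 1 lower became 2 with trend removal and 4 at 1.5-fold. Between the AIL libraries, 0 lower became 1 at 1.5-fold. Among all genes with AR1-651, 586 higher became 1066 with scaling, and 1701 lower became 3047 with a pseudocount of 0.1, 817 with scaling and 534 with trend removal. With AIL in empty vector cells 1321 lower became 2139 with a pseudocount of 0.1. With AIL in AR1-651 cells 2184 higher became 1155 with trend removal, and 839 lower became 1331 with a pseudocount of 0.1 and 1261 with scaling. Between the AIL libraries 214 higher became 509 with a pseudocount of 0.1 and 112 with a minimum of 5 RPKM, and 517 lower became 1160 with a pseudocount of 0.1 and 189 with trend removal. At 1.5-fold these counts were 1570 and 4720, 3064 and 3233, 4183 and 2145, and 1130 and 2271, higher and lower in the same order of comparisons. Apart from trend removal, which takes out length and GC content by construction, the cause of these shifts was not tested. Depth limits MYCL most, at 10 to 16 reads.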
